A study of Homo sapiens with 6 samples.

Results

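Non-clustered protocadherins are cadherin-family adhesion proteins encoded by single genes scattered over the genome, unlike the clustered protocadherins that share a tandem array. Their extracellular cadherin repeats bind the same protein on a neighbouring cell weakly, and their cytoplasmic tails engage actin regulators such as the WAVE complex, a phosphatase inhibitor or other cadherins, so they are known for cell sorting, axon growth and synapse remodelling. Several are also known as genes that tumours silence through promoter methylation.

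The chromatin at 8 of these genes, PCDH1, PCDH7, PCDH8, PCDH9, PCDH10, PCDH17, PCDH18 and PCDH20, was measured by ATAC-seq, which counts fragments cut out by the Tn5 transposase and so reads how open a region is. A peak was given to a gene when its centre lay in the gene's body, or when it was intergenic and that gene's start was the nearest protein-coding start. This gave 313 of 152800 peaks, 61 in gene bodies and 252 intergenic, and 50 of them had their centre within 3 kb of a start. Of these, 311 of 150117 passed the filter on low counts, and the remaining 2 belonged to PCDH18. The group of genes was selected on measured values of the comparison described here, since PCDH7 was picked as lying in a region that rose as a whole, so all values of that comparison are given as a description and without a p-value.

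The cells were A375, a human melanoma line, in 2 stable lines made by lentiviral transduction: empty vector, and HMGB2OE, which overexpresses HMGB2, a high mobility group protein that binds and bends DNA. Each had 3 libraries, and the study's reporting summary calls these technical replicates of an experiment that was not repeated, so the spread between libraries measures technical error and a difference between the lines cannot be told apart from a difference between the 2 transduced cultures. Whether either line was a single clone is not given in the sources used here.

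The libraries held 26910189 to 45645294 counts in peaks, and their scaling factors lay between 0.975 and 1.02. Library pairs of the same group differed by 2.5 to 4.66 times the counting variance, so no library was a second copy of another. A peak over the HMGB2 coding sequence (chr4:173332680-173333181) had 50.03, 24.95 and 21.1 normalized counts in the empty vector libraries against 102, 100.9 and 92.3 in the HMGB2OE libraries. MITF, SOX10 and PMEL, which mark the melanocyte lineage, had promoter peaks with mean levels of 1295, 862 and 3768 normalized counts, and the pigment genes MLANA, TYR and DCT had no promoter peak. The study called peaks against a melanocyte dataset as control, so a missing peak at such genes does not by itself show closed chromatin. Of the 4 genes of other cell types, the leukocyte gene PTPRC went from a mean of 161 to 69.8 normalized counts, while EPCAM (221 and 214), KRT5 (64.7 and 63.1) and PECAM1 (212 and 201) were close in both lines. The part of these differences in the results below was not tested.

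The sequences of 3 regions are shown first: the promoter of the gene with the most changed peaks, a called rise in its intron, and the most open distal peak of PCDH20, the gene whose tested peaks all lay above 0. The promoter is RefSeq's (GRCh38.p14) and covers 250 bases before the start. The other runs are the central 300 bases of peaks, on the plus strand of hg38. Capitals mark matches, on either strand, to the AP-1 word TGANTCA, the SOX word ACAAAGG, the octamer ATGCAAAT, the TEAD word ACATTCC or the MITF M-box word TCATGTG. Among all tested peaks, the central 300 bases held these words in 31.7%, 8.37%, 1.83%, 6.21% and 4.81%, in that order, and none of the 5 words overlapped another in the runs shown.
PCDH7 promoter, chr4:30720119-30720368: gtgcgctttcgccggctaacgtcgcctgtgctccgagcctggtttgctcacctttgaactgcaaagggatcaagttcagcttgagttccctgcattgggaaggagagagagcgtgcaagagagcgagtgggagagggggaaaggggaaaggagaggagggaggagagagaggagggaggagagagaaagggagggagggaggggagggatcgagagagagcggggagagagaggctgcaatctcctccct
PCDH7 intron, called rise, chr4:30770100-30770399: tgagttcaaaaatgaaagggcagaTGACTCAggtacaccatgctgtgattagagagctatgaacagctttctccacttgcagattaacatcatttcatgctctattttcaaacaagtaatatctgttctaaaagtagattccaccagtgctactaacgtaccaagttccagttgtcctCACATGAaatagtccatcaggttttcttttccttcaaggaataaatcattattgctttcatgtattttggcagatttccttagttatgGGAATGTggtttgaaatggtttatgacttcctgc
PCDH20 downstream, most open distal peak, chr13:61339262-61339561: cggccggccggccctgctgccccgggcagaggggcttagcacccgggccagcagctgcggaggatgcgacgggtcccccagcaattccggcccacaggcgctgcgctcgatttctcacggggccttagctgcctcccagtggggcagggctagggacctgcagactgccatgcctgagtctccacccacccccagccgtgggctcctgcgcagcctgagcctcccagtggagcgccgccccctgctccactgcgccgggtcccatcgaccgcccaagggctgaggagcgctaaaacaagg

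The PCDH7 promoter is 59.6% G or C, and none of the 5 words occurs in the 250 bases before its start. In 35116 RefSeq promoters of that length, the AP-1 word occurred in 6.57%. The intronic PCDH7 peak holds an AP-1 word, an M-box word and a TEAD word. The other called intronic PCDH7 rise, chr4:30840156-30840657, was larger (log2 fold change 1.22 against 0.72) and holds none of the 5 words. The PCDH20 peak holds none of the words and is 71.7% G or C in the bases shown.

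Across the 8 genes, 12 of 311 tested peaks were called higher in HMGB2OE (3.86%, against 1.87% of all tested peaks) and 4 were called lower (1.29%, against 1.44%). A peak was called when edgeR's Benjamini-Hochberg adjusted p over all tested peaks was under 0.05 and the fold change was at least 1.5. Nothing is read from the excess of rises, because the genes were picked with this comparison known. Of the 12 rises, 6 were at PCDH7, 3 at PCDH9 and 1 each at PCDH1, PCDH8 and PCDH18, and all 4 falls were at PCDH10. Single libraries moved these counts: there were 5 rises without empty vector replicate 2, 7 without empty vector replicate 3, HMGB2OE replicate 1 or HMGB2OE replicate 2, and 2 falls without HMGB2OE replicate 2.

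**Figure D1:**
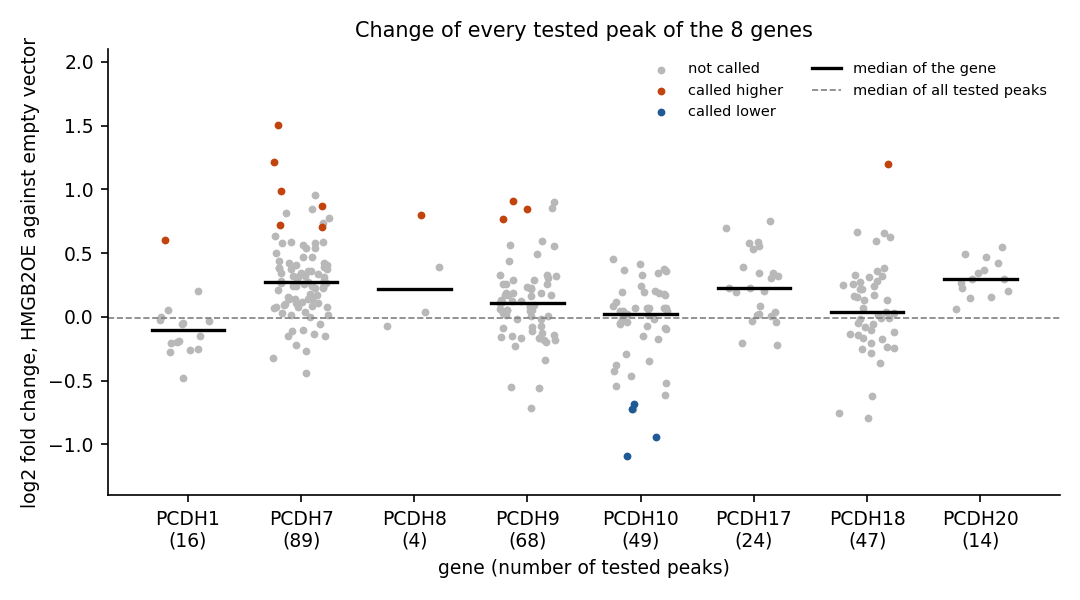
Each point is a tested peak, placed by gene, with its log2 fold change (HMGB2OE against empty vector) on the vertical axis; coloured points passed the call rule, black bars are gene medians and the dashed line is the median of all 150117 tested peaks. The 78 of 89 PCDH7 peaks above 0 and the 14 of 14 PCDH20 peaks above 0 stand beside PCDH10, whose 4 coloured points lie below 0.

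Below the call rule, 218 of the 311 peaks (70.1%) had a log2 fold change above 0, against 49.2% of all tested peaks, and their median was 0.14 against -0.0049. The 3 libraries of each line did not overlap in 76 peaks that were higher in HMGB2OE (24.4%, against 12.6%) and in 21 that were lower (6.75%, against 12.5%). With no fold limit, 22 of the 311 peaks were higher and 5 lower, where 3.44% and 3.03% of all tested peaks were. At an unadjusted p under 0.05, 66 of the 311 were higher and 15 lower, where 10.7% and 10.2% of all tested peaks were. DESeq2 called 7 of them higher and 3 lower at the limits of the call rule, and 1.45% and 1.14% of all the peaks it tested. PCDH7 alone carried much of this. Without it, 6 of 222 peaks were called higher (2.7%, against 1.87% of all tested peaks) and 4 lower (1.8%, against 1.44%). Of the 222, 140 (63.1%) lay above 0 and the median was 0.07. Every called peak lay over 3 kb from a start, where 261 of the 311 peaks lay. Most called peaks of the whole set lay there too, 2305 of 2800 rises and 1774 of 2166 falls. Of the 261, 4.60% were called higher and 1.53% lower, against 2.23% and 1.72% of all tested peaks over 3 kb from a start. Above 0 were 70.1% of the 261, against 52.1%.

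Summed over all its peaks, each gene gives a single level per library. For PCDH7 the empty vector libraries had 13245, 13975 and 13130 normalized counts and the HMGB2OE libraries 15829, 16106 and 15238. The PCDH20 sums were 1576, 1665 and 1616 against 2093, 2046 and 1970, and those of PCDH17 were 2978, 3018 and 2948 against 3370, 3496 and 3356. In these 3 genes all HMGB2OE libraries lay above all empty vector libraries, with log2 ratios of the means of 0.23, 0.33 and 0.19. How often the summed levels of other genes are apart in this way was not measured, so nothing is read from the number of such genes. The other genes overlapped between the lines: the log2 ratio was 0.10 for PCDH8, 0.08 for PCDH9, 0.04 for PCDH18, -0.01 for PCDH10 and -0.11 for PCDH1.

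**Figure D2:**
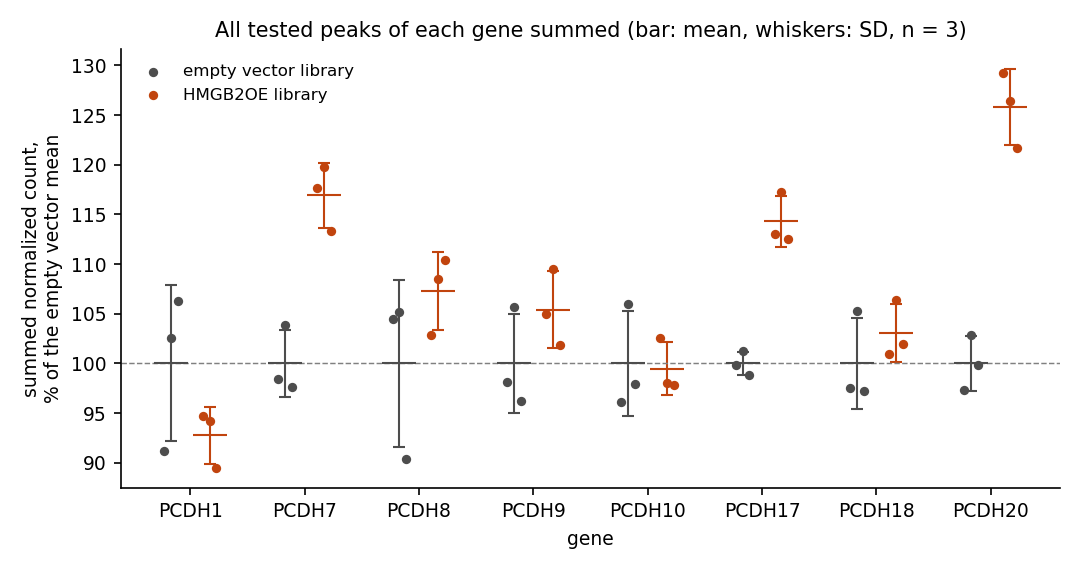
Points are libraries, with the normalized counts of all tested peaks of a gene summed and given as a percent of that gene's empty vector mean; bars are means and whiskers SD (n = 3 libraries per line). The vertical axis does not start at 0; the lines are apart in PCDH7, PCDH17 and PCDH20 and overlap in the other 5 genes.

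The promoters differed widely in how open they were. The promoter peak of a gene is the most open peak with its centre within 1 kb of the start. In the empty vector libraries the order was PCDH9 at 1225 ± 25.6 normalized counts (SD, n = 3), PCDH1 at 914 ± 92.8, PCDH10 at 839 ± 66.0, PCDH20 at 489.7 ± 51.1, PCDH7 at 412 ± 22.4, PCDH18 at 275.5 ± 33.5 and PCDH17 at 215 ± 12.0. All peaks are 502 bases wide, so these levels can be set side by side. The library ranges of PCDH1 (807 to 974) and PCDH10 (765 to 892) overlapped, and so did those of PCDH20 (431 to 522) and PCDH7 (397 to 438). The ranges of the other neighbours in the order were apart. The PCDH9 promoter was at the 89.3 percentile of all promoter peaks and the PCDH17 promoter at 43.8. Parts of the order depend on the 1 kb limit. Farther upstream, the PCDH17 peak chr13:57629787-57630288, 71 bases from an annotated transcript start, had an empty vector mean of 474.7. The PCDH7 peak chr4:30717314-30717815, 195 bases from such a start, had 511.7. The PCDH1 peak chr5:141883111-141883612, 129 bases from such a start, had 1160.3. Each was more open than its gene's promoter peak as defined here. Which gene these transcripts belong to is not given here. PCDH8 had no peak within 1 kb of its start, and its nearest, 2.13 kb upstream, had 192, 226 and 218 normalized counts in empty vector and 213, 210.2 and 235 in HMGB2OE.

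**Figure D3:**
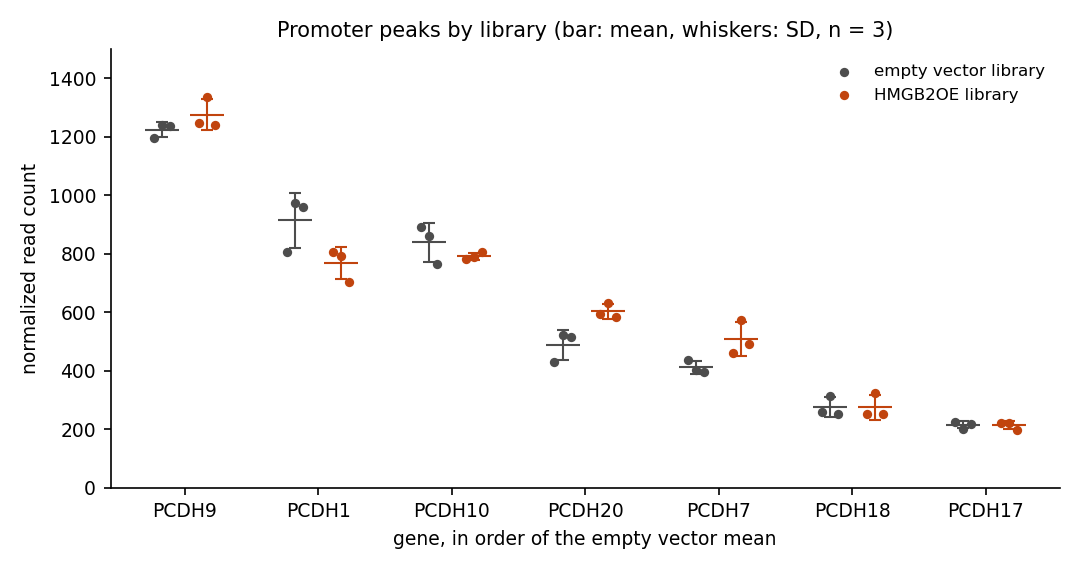
Points are libraries, with the normalized read count of each gene's promoter peak on a linear axis from 0; bars are means and whiskers SD (n = 3), and genes run in the order of the empty vector mean. PCDH20, PCDH7 and, barely, PCDH9 have all HMGB2OE points above all empty vector points and PCDH1 has them all below, while the PCDH10, PCDH18 and PCDH17 groups overlap.

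PCDH7, whose cytoplasmic tail binds the phosphatase PPP1CA and the phosphatase inhibitor SET, had the largest number of peaks. It spans 426 kb of chromosome 4 (chr4:30720369-31146805, plus strand), and its 89 peaks cover 4.55 Mb, because the nearest other protein-coding starts, those of STIM2 and ARAP2, are megabases away. The median log2 fold change was 0.28, with quartiles of 0.11 and 0.44. Of its 89 peaks 6 were called higher (6.74%, against 1.87% of all tested peaks) and 0 lower. With no fold limit 13 of its peaks were higher and 1 lower, where 3.44% and 3.03% of all tested peaks were. The libraries did not overlap in 33 peaks that were higher (37.1%, against 12.6%) and 1 that was lower (1.12%, against 12.5%). Nothing is read from these shares, because PCDH7 was picked for its rise. The 6 calls became 3 without empty vector replicate 2 or without HMGB2OE replicate 2.

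The peaks at the PCDH7 start were all higher in HMGB2OE, by less than the fold limit. Its promoter peak, centred 0.62 kb upstream, had 438, 402 and 397 normalized counts in empty vector and 462, 576 and 491 in HMGB2OE, a log2 difference of 0.31 (SE 0.10). The peak across the start itself, over the first untranslated exon, had 352, 360.5 and 357 against 434, 508 and 464, a log2 difference of 0.39 (SE 0.10). Another, 2.81 kb upstream, had 479, 545 and 510.2 against 649, 724 and 632, a log2 difference of 0.38 (SE 0.09). The libraries of the lines were apart at all 3 of these peaks. At the coding peak 1.44 kb downstream, with 161, 123 and 115 against 171, 199 and 159, the lowest HMGB2OE library lay under the highest empty vector library.

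The largest PCDH7 rises were at less open peaks in the gene's introns and in the flanks. At the intronic peak with the largest rise among those whose libraries were apart, the empty vector libraries had 31.96, 29.3 and 35.1 normalized counts and the HMGB2OE libraries 62.9, 85.1 and 75.4, a log2 fold change of 1.22 (SE 0.24). The intronic peak chr4:30769999-30770500, which holds the AP-1, M-box and TEAD words, had 62.5, 45.6 and 45.6 against 83.3, 82.6 and 84.4, a log2 fold change of 0.72 (SE 0.21). The HMGB2OE libraries were nearly equal to each other at this peak. Upstream, the peak chr4:29749361-29749862 lay 970.8 kb from the start, and had 149, 179.8 and 216 against 331, 263 and 297, a log2 fold change of 0.70 (SE 0.13). It was the most open of the PCDH7 rises.

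The other upstream rises were chr4:30208723-30209224, with a log2 fold change of 0.87 (SE 0.26), and chr4:30256245-30256746, with 1.504 (SE 0.43). The latter was the largest rise of any of the 8 genes, but it was a weakly open peak, and its libraries overlapped between the lines, at 19.5, 6.88 and 15.2 against 54.4, 18.4 and 40.5. Downstream, chr4:31662862-31663363 lay 942.7 kb from the start, with 31.96, 35.3 and 45.6 against 62.1, 80.9 and 82.2, a log2 fold change of 0.99 (SE 0.24). The most open PCDH7 peak of all, chr4:30600221-30600722, 119.9 kb upstream, had 927, 1095 and 1034 against 1002, 963 and 976, and its log2 difference was -0.06 (SE 0.08). By mean count, the 30 least open PCDH7 peaks had a median log2 difference of 0.37, the next 29 had 0.24 and the 30 most open had 0.29.

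The rise at PCDH7 was spread over megabases. Its 14 peaks over 500 kb upstream were all above 0, with a median of 0.36. The 16 peaks within 500 kb upstream had a median of 0.31, the 16 in the gene 0.38, the 28 downstream to 2 Mb 0.23 and the 15 beyond that 0.22. In steps of 1 Mb from 3 Mb before the start, the median over all tested peaks was 0.17, 0.30, 0.46, 0.28, 0.24 and 0.13. It was below 0 in the next 1 Mb, at -0.28. Of the 2814 windows of 1 Mb in the genome with at least 10 tested peaks, 3.66% had a median of at least 0.2 and 0.853% one of at least 0.3. Those windows were laid on whole megabases and not from the PCDH7 start, and the PCDH7 window with a median of 0.30 held only 8 tested peaks. Nothing is read from these shares, because the region was picked for its rise.

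In steps of 500 kb the medians past PCDH7 did not all lie on the same side of 0. From 3 to 3.5 Mb after the PCDH7 start, 1 of 18 tested peaks was above 0 and the median was -0.36, and the libraries did not overlap in 9 peaks that were lower (12.5% of all tested peaks were lower in this way). From 3.5 to 4 Mb, 6 of 8 peaks were above 0 and the median was 0.16. The 18 peaks, between chr4:33739987 and chr4:34201105, have ARAP2 as their nearest protein-coding gene. On the other side, the neighbouring genes within 5 Mb had medians near 0: SMIM20 (-0.07, 11 peaks), SEL1L3 (0.03, 15), RBPJ (-0.05, 50), CCKAR (0.11, 10), TBC1D19 (-0.07, 4) and STIM2 (0.09, 67). Rises were nevertheless called at STIM2, in 4 of 67 peaks (1.87% of all tested peaks were called higher), with 0 falls. At STIM2 45 peaks lay above 0. CCKAR had 1 rise, RBPJ had 1 rise and 1 fall, and SMIM20, SEL1L3 and TBC1D19 had no called peak.

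**Figure D4:**
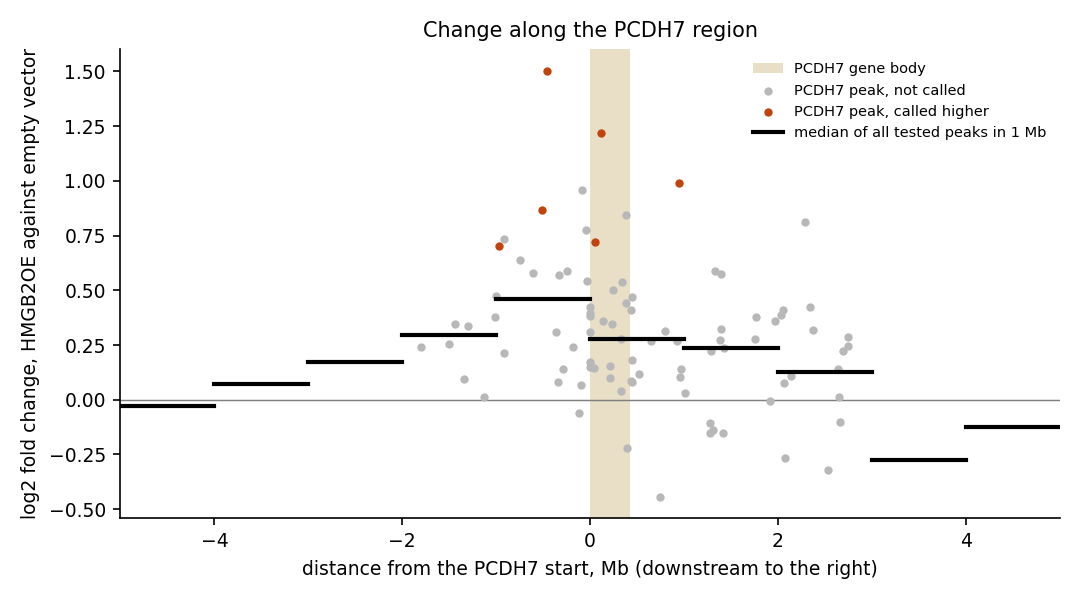
Points are the 89 PCDH7 peaks, placed by distance from the PCDH7 start in Mb, with the log2 fold change (HMGB2OE against empty vector) on the vertical axis; the shaded band is the gene body and black bars are medians of all tested peaks, of any gene, in windows of 1 Mb. The bars reach 0.46 in the window before the start and lie below 0, at -0.28, from 3 to 4 Mb after it, a window whose first 500 kb has a median of -0.36 and whose last 500 kb has one of 0.16.

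PCDH20 and PCDH17, both known for promoter methylation in tumours, lie on chromosome 13 and had no called peak, while most of their peaks lay above 0. By edgeR's rule 0 of 14 PCDH20 peaks and 0 of 24 PCDH17 peaks were called, and DESeq2 called 0 of either. At an unadjusted p under 0.05, 4 PCDH20 peaks and 7 PCDH17 peaks were higher and none was lower. Of all tested peaks 10.7% were higher and 10.2% lower by that limit. With no fold limit 2 PCDH20 peaks and 1 PCDH17 peak were higher, as were 3.44% of all tested peaks. All 14 PCDH20 peaks lay above 0, between 0.06 and 0.55, with a median of 0.30. Of the PCDH17 peaks 20 of 24 did, with a median of 0.23.

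At PCDH20 the shift included the promoter and the distal peaks. The promoter peak, over an untranslated exon 0.546 kb inside the gene, had 431, 522 and 516 normalized counts in empty vector and 595, 633 and 583 in HMGB2OE, a log2 difference of 0.30 (SE 0.10). The most open distal peak, chr13:61339161-61339662, whose central bases are shown above, had 284, 285 and 267 against 362, 386 and 412, a log2 difference of 0.47 (SE 0.11). A peak 304.8 kb downstream had 118, 116 and 98.3 against 187, 153 and 144, a log2 difference of 0.55 (SE 0.15). Libraries were apart at all 3. An overlapping unnamed protein-coding gene (ENSG00000197991) starts 12 kb upstream of PCDH20 and takes the peaks on that side. All peaks given to PCDH20 therefore lie in PCDH20 or downstream of it.

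At PCDH17, which recruits the WAVE complex in growing axons, the promoter stood apart from the distal peaks. The promoter peak had 224, 201 and 220.0 normalized counts against 222, 223 and 199, a log2 difference of 0.01 (SE 0.12). The 4 peaks within 3 kb of a start had a median of -0.01 and the 20 farther away 0.31. A peak 1186 kb downstream (chr13:58817064-58817565) had 163, 124 and 186 against 218, 251 and 229, a log2 difference of 0.58 (SE 0.14), and the most open distal peak, 79.1 kb upstream, had 239, 300.3 and 276 against 373, 349 and 314, a difference of 0.34 (SE 0.12). The first of these shares words of 31 bases with 1937 other peaks, so reads of its repeat may be split among copies.

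PCDH9, a neuronal protocadherin whose gene spans 928 kb of chromosome 13, had the most open promoter and 68 peaks with a median of 0.11. Its promoter peak had 1195, 1239.8 and 1239 normalized counts against 1249, 1338 and 1242, a log2 difference of 0.06 (SE 0.08), with the libraries barely apart. All 3 called PCDH9 rises lay upstream, in the intergenic region, where 21 of 28 peaks were above 0. The peak chr13:67574519-67575020 had 27.8, 31.8 and 43.3 against 74.0, 46.7 and 74.3 (log2 fold change 0.91, SE 0.26). The peak chr13:67619947-67620448, which holds an AP-1 word, had 61.1, 52.5 and 36.3 against 91.8, 87.6 and 90.1 (0.85, SE 0.21). The peak chr13:67914929-67915430 had 52.8, 60.2 and 50.3 against 95.2, 103 and 81.1 (0.77, SE 0.20). The 26 peaks in the PCDH9 gene had a median of 0.05.

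PCDH10, which guides axons and binds the WAVE complex subunit NCKAP1, was the member with called falls. Upstream of the gene, the peak that fell most had 129, 178 and 143 normalized counts in empty vector and 62.9, 76.7 and 73.2 in HMGB2OE, a log2 fold change of -1.09 (SE 0.17). The peak chr4:132179907-132180408, 969 kb upstream, had 63.9, 43.9 and 46.8 against 26.4, 25.02 and 28.1 (-0.94, SE 0.29), and its call was lost in 10 of 15 other settings. Another upstream peak was the most open of the falls, with 353, 351 and 377 against 231, 238 and 200.4 (-0.69, SE 0.11). Downstream, chr4:133594467-133594968 had 158, 129 and 121 against 96.9, 69.2 and 78.8 (-0.73, SE 0.17). At all 4 peaks every HMGB2OE library was below every empty vector library.

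The rest of PCDH10 did not follow these falls. Its 49 peaks had a median of 0.02 and 26 lay above 0. The promoter peak had 892, 860.4 and 765 normalized counts against 782, 788 and 805, a log2 difference of -0.08 (SE 0.09). The most open distal peak, 921 kb upstream, had 396, 515 and 467 against 511, 555 and 501, a difference of 0.18 (SE 0.10), so it lay on the other side of 0 from falling peaks of the same flank.

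PCDH18, whose tail binds the adaptor DAB1, had 1 called rise among 47 tested peaks and a median of 0.03. That peak, chr4:136687027-136687528, was weakly open, with 16.7, 12.9 and 18.7 normalized counts against 27.2, 33.4 and 50.7 (log2 fold change 1.20, SE 0.37), and its call was lost in 9 of 15 other settings. The promoter peak had 258.5, 314 and 254 against 252, 324 and 251, a difference of -0.0048 (SE 0.13). The most open distal peak, downstream of the gene, had 381, 427 and 420.1 against 404, 430.4 and 424, a difference of 0.03 (SE 0.10).

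PCDH8, an activity-regulated protein that takes up N-cadherin from synapses, had 4 peaks. Its called rise, chr13:52804247-52804748, 44.1 kb downstream of the start, had 84.8, 58.5 and 50.3 against 99.5, 106 and 129 (log2 fold change 0.80, SE 0.20), and the most open peak, 5 kb from it, had 356, 367 and 276 against 321, 329 and 298 (-0.07, SE 0.12).

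PCDH1, an epithelial protocadherin used as an entry receptor by some hantaviruses, had 12 of 16 peaks below 0, the highest share of the 8 genes, and a median of -0.10. That median was 0.0036 without empty vector replicate 3. Its promoter peak had 807, 974 and 962 normalized counts against 807, 792 and 705, a log2 difference of -0.25 (SE 0.09), and its most open distal peak, chr5:141821426-141821927, had 962, 1167 and 1043 against 949.5, 946 and 869 (-0.20, SE 0.09). The groups were apart at both, by little at the promoter, where the lowest empty vector library and the highest HMGB2OE library both round to 807. The called rise, chr5:141843031-141843532, 36.0 kb downstream of the start, had 91.7, 92.9 and 109 against 162, 131 and 153 (0.60, SE 0.16).

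**Figure D5:**
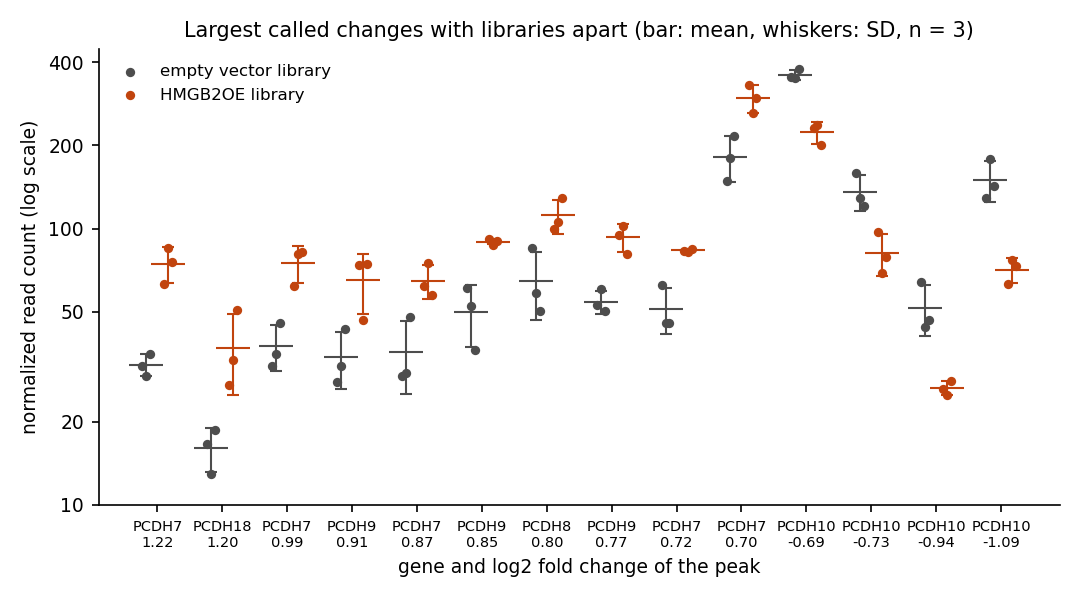
Points are libraries, with normalized read counts on a log axis, for the 10 largest called rises and the 4 called falls whose libraries did not overlap; each position gives the gene and the log2 fold change, bars are means and whiskers SD (n = 3). The rises at PCDH7, PCDH18, PCDH9 and PCDH8 start mostly under 100 counts, and the PCDH10 falls include the most open peak shown, from a mean of 360.3 to 223.

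Of the 16 called peaks, 15 had libraries that did not overlap, 11 of them higher and 4 lower. The call rule itself favours such peaks, so this count is no separate support for the calls, and its share among all called peaks was not measured. Among the called peaks, 13 of 16 had no word of 31 bases in common with any other peak. The share of such peaks over the whole set was not measured. The highest share of such words was 33.9%, at a PCDH9 rise. Over all 311 tested peaks, 229 shared no such word and had a median of 0.14. By place, the 250 intergenic peaks had a median of 0.17, with 10 called higher and 4 lower, and the 51 intronic peaks 0.05, with 2 called higher. These medians pool genes with unequal numbers of peaks in each place. At PCDH9, which had 26 peaks in its gene, the median in the gene was 0.05, whereas at PCDH7 it was 0.38, above the 0.34 of the upstream peaks and the 0.22 of the downstream peaks.

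The AP-1 word was the most frequent of the 5, in 116 of the 311 peaks (37.3%, against 36.4% of all tested peaks). Peaks with it had a median of 0.11 and peaks without it 0.17. It occurred in 4 of the 12 rises and in 3 of the 4 falls. The SOX word was found in 10.9% of the 311 peaks (12.1% of all), the octamer in 3.86% (3.08%), the TEAD word in 7.07% (8.93%) and the M-box word in 8.36% (7.42%).

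The remaining non-clustered protocadherins, PCDH11X, PCDH11Y, PCDH12, PCDH15 and PCDH19, had 83 tested peaks, and 5 of these (6.02%, against 1.44% of all tested peaks) were called lower. Their median was -0.01. The falls were 2 at PCDH11X and 3 at PCDH15, the latter a protein of the hair cell tip link. Of 164 peaks of the FAT, DCHS and CELSR giant cadherins 4 were called higher (2.44%, against 1.87% of all tested peaks) and 5 lower (3.05%, against 1.44%), and FAT3 held 3 of the rises and 4 of the falls. FAT1 had 1 rise and DCHS2 1 fall. Among 14 cytoplasmic partners, such as the WAVE subunits, PPP1CA, SET, DAB1 and N-cadherin (CDH2), 1 of 176 peaks was called higher (0.568%) and 3 lower (1.70%, near the 1.44% of all tested peaks), the rise and 2 of the falls at CDH2 and 1 fall at WASF2. The 8 peaks of PPP1CA and the 4 of SET, the partners of PCDH7, had medians of 0.10 and -0.04.

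The genes whose summed level most resembled that of PCDH7 over the 6 libraries were CNOT2 (Pearson r = 0.998), STK32A (0.994), CPEB2 (0.993), MAMDC2 (0.993) and ZC3H11B (0.991), out of 4964 protein-coding genes with at least 10 tested peaks. All 6 points share libraries and the line difference, so these values describe likeness alone.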

How the data were processed

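ATAC-seq counts of A375 cells were used, from 3 empty vector and 3 HMGB2OE libraries grouped by the genotype label. The authors trimmed reads with Trim Galore 0.6.7 and Cutadapt 4.0, used Bowtie 2 for alignment to hg38 and Picard for duplicate removal, ran MACS2 at a p setting of 0.001 against a melanocyte control, merged the peaks and deposited raw counts per peak from featureCounts. A shift of reads for Tn5, and how multiply mapped reads were counted, are not given in the sources used here.

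All peaks were fitted with edgeR 4.0.16 (R 4.3.3; filterByExpr, TMM, glmQLFit and glmQLFTest, no covariate), with Benjamini-Hochberg adjustment over the 150117 peaks tested. The study used DESeq2, which is an alternative here (version 1.42.0). Normalized counts are scaled to the mean effective library size. Genes were placed with GENCODE v44, and RefSeq promoter entries matched 6 of the 8 genes. Named peaks are each gene's promoter peak, its most open distal peak (over 3 kb from a start), and the 10 largest rises and falls among called peaks with libraries apart. Some sequences are not reported here. Other peaks, such as those around the PCDH7 start and the largest PCDH7 rise, were named after their values were seen. Genes, lists and words were chosen with earlier results of these data known. In simulated counts for this comparison (149853 peaks), 98.5% of 200 peaks planted at a log2 fold change of 1.5 were recovered, with 6 false calls. The planted changes were larger than most of the called changes, and the least open peaks were given none. Recovery of changes of the size and level called here was therefore not tested.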

Additional observations from a re-analysis of the deposited data

How the results depend on the processing

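Most rises lie at peaks with under 100 normalized counts, where the relative counting error is larger than at the promoters. The 12 rises became 7 with DESeq2, 22 with a lower fold limit (below 1.5) and 22 with none, and 2 when only peaks in gene bodies were kept, which leaves fewer peaks. Leaving out a library gave 5 to 13: the lowest came from dropping empty vector replicate 2, and 7 from dropping empty vector replicate 3, HMGB2OE replicate 1 or HMGB2OE replicate 2. The 4 falls became 2 with GC-content offsets and 0 in gene bodies, and 2 to 3 on leaving out a library, with 2 without HMGB2OE replicate 2. The 6 PCDH7 rises became 3 with DESeq2, 13 with the lower fold limit or with none, and 2 in gene bodies, and 3 to 8 on leaving out a library, reaching 3 without the second library of either line and 4 without the last. The cause was not tested except where peaks or samples were dropped.

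Replicate numbers did not pair the samples: same-numbered deviations correlated at -0.0886, 0.185 and 0.125, and not every sample correlated best with its own number. With the replicate block the counts were 13 higher, 4 lower and 6 at PCDH7, and with the replicate block and GC-content offsets they were 17, 3 and 10. No result changed direction past its threshold. The median stayed above 0 in every setting for PCDH7 (0.26 to 0.38), PCDH20 (0.20 to 0.38), PCDH17 (0.02 to 0.28), PCDH9 and PCDH8. Dropping empty vector replicate 3 made it -0.01 for PCDH18, -0.05 for PCDH10 and 0.0036 for PCDH1, and it was -0.02 for PCDH10 without HMGB2OE replicate 1. Giving PCDH20 the peaks of the overlapping unnamed gene, an alternative added after the data were seen, gave 13 rises and 4 falls. The calls at the intronic PCDH7 peak with a log2 fold change of 1.22, at chr4:29749361 and at the PCDH10 falls of -1.09 and -0.69 held in all 15 settings that refitted the peaks. The PCDH18 rise was lost in 9, the PCDH10 fall at chr4:132179907 in 10 and the PCDH7 rises at chr4:30208723 and chr4:30769999 in 6 each.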
